A study of Mus musculus with 6 samples.

Results

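The 8 genes described here encode pore subunits of voltage-gated calcium channels. They were Cacna1a, Cacna1b, Cacna1c, Cacna1d and Cacna1e, which form channels of high activation threshold, and Cacna1g, Cacna1h and Cacna1i, which form the low-threshold T-type channels. Every array probe that the scanner files name for one of these genes was taken, which gave 29 probes for 8 of the 37074 gene names on the array. Expression was measured on 6 one-colour Agilent arrays, 3 from control cultures and 3 from cultures exposed to terahertz radiation at 3.1 THz, a band between microwaves and infrared light. All cultures were cortical neurons of C57/B6 mice taken at embryonic day 16, grown in Neurobasal medium with B27 plus, and lysed at day 12 in vitro. The irradiated cultures had 3 hours of exposure daily between days 5 and 9 in vitro; the labels do not say how the controls were handled during those hours. Replicates are numbered 1 to 3 in each group, with no statement that they came from separate dissections, so the p-values reflect only how far these samples spread, and that spread may be technical.

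A calcium channel pore is a single large protein of homologous membrane domains that opens on depolarisation and lets calcium into the cell. P/Q-type (Cacna1a) and N-type (Cacna1b) channels trigger transmitter release at most central synapses, L-type channels (Cacna1c and Cacna1d) couple activity to transcription, and R-type channels (Cacna1e) act in dendrites and terminals. T-type channels open near rest and support bursts and rhythmic firing.

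An array reads each gene through 60-base probes, and the results below differ between probes of the same gene. The probes on which they turn are shown 5′ to 3′ as the scanner files give them, with G and C in capitals because the measured difference moved with GC content, and with the position of the first base in the transcript as the name. The Cacna1h and Cacna1g sets show probes of 1 gene that differ in base composition. Cacna1h 6053, with 60% G and C, is not shown, and its difference had the opposite sign to those at 4456 and 568. In the Cacna1g set the difference was largest at 6951, the probe richest in G and C. For Cacna1d and Cacna1e, the first probe of each pair was made for a cDNA clone or an Ensembl transcript and the second for a curated RefSeq mRNA. Probes at Cacna1h 1561, Cacna1g 8005, Cacna1d and Cacna1e are shown by their first 30 bases, which do not give the composition of the whole probe. The whole probes hold 28.3% G and C at Cacna1h 1561 and 36.7% at Cacna1g 8005. They hold 35% at Cacna1d 1147 and Cacna1e 2296, and 45% at Cacna1d 8461 and Cacna1e 10827.
Cacna1h 4456: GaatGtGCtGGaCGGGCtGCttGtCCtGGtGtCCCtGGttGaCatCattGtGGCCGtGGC
Cacna1h 568: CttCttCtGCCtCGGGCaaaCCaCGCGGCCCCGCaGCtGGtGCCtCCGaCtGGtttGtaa
Cacna1h 1561: tCtCtaCCttGtGtGtttaaCtGtataaat
Cacna1g 6951: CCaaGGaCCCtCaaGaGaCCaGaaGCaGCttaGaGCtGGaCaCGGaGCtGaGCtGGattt
Cacna1g 7409: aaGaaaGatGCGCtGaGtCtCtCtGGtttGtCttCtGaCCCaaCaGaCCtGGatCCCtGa
Cacna1g 8005: CatCttCaaCGGaaaGCGaGaaCCattttG
Cacna1d 1147: GGataGGtCtGaaGCtGttattGttttGGG
Cacna1d 8461: aCaCCtGGGGaCaGttaGCtttGGaatCGt
Cacna1e 2296: atGttCatGtttaGaaaGtatCCaGtGCCt
Cacna1e 10827: tCatGttttGaaaCaatttCCCCaaGGCtt

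Levels are given as log2 processed signal after subtraction of the 75th percentile of the same array, and differences as irradiated minus control on that scale. Levels of different probes are not compared, since probes bind with different strength. That percentile was 476 on control 1 and lay between 687 and 1291 on the other 5 arrays (units of processed signal). On control 1, 64.9% of spots were well above background, against 69.9% to 74.7% elsewhere. This array stood apart from the rest at many of the probes below, and at many of all probes. Over all 40552 tested probes it was the lowest of the 6 arrays at 33.4% and the highest at 31.6%. It was the lowest at 11 of 18 high-threshold and 5 of 9 T-type probes, and the highest at 3 and 4 of them. No spot was saturated. A further quality measure, the slope for spike-in RNA (control RNA added to a sample), set other arrays apart. Its limits were met by control 1 and irradiated 2 alone. Control 2, control 3, irradiated 1 and irradiated 3 fell outside them. All arrays sat on 1 slide, the controls and irradiated 1 in its first row and irradiated 2 and 3 in the row below. All 8 neuronal markers, including Rbfox3, Map2 and Tubb3, were well above background on all 6 arrays. The summed level of these 8 markers was 8.87 to 9.06 in controls and 8.17 to 8.95 in irradiated cultures, so RNA of the labelled cell type was found on every array. Of the 8, 7 differed by less than 0, where 65.8% of all genes did. Among the markers of any cell type, 0 passed the test. Markers of astrocytes, oligodendrocytes and microglia were measured too. In such mixed cultures, fewer cells of a type and less RNA per cell cannot be told apart.

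No calcium channel pore subunit passed the test between irradiated and control cultures, and neither did any other gene. Of the 29 probes, 27 exceeded background clearly (the scanner's flag for a spot well above it) on 3 or more arrays and were tested. The 2 others lie at bases 264 and 5429 of predicted Cacna1b transcripts. The first carried that flag on 2 irradiated arrays and the second on none, and no fold is given for either. In limma, adjusted for 40552 probes by the Benjamini-Hochberg method, 0 of the 27 passed an adjusted p of 0.05, and percent called was 0 for all probes and 0 for all 26157 genes. The smallest adjusted p of a member was 0.52. At an unadjusted p under 0.05, 1 member probe was found, or 3.7%, where 9.02% of all probes were. The groups did not overlap at 4 member probes. At 1 of them the irradiated values lay above, against 5.77% of all probes, and at 3 they lay below, against 9.71% of all probes. Differences above 0 were seen at 14 of the 27 probes and below 0 at 13, against 44.1% and 55.9% of all probes. The median difference was 0.09 over the member probes and -0.05 over all probes. With 1 brightest probe per gene, 1 of the 8 genes had an unadjusted p under 0.05, against 9.13% of all genes. Irradiated values lay above the controls without overlap in 1 gene (3.85% of all genes) and below in 1 (12.1%), and 5 of the 8 differences were above 0 (34.2%). That last share was above that of all genes, but it rests on 8 genes and was not tested. Scaling moved the split over all genes: 65.8% were below 0 as reported and 55.3% with the percentile taken over detected probes.

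**Figure D1:**
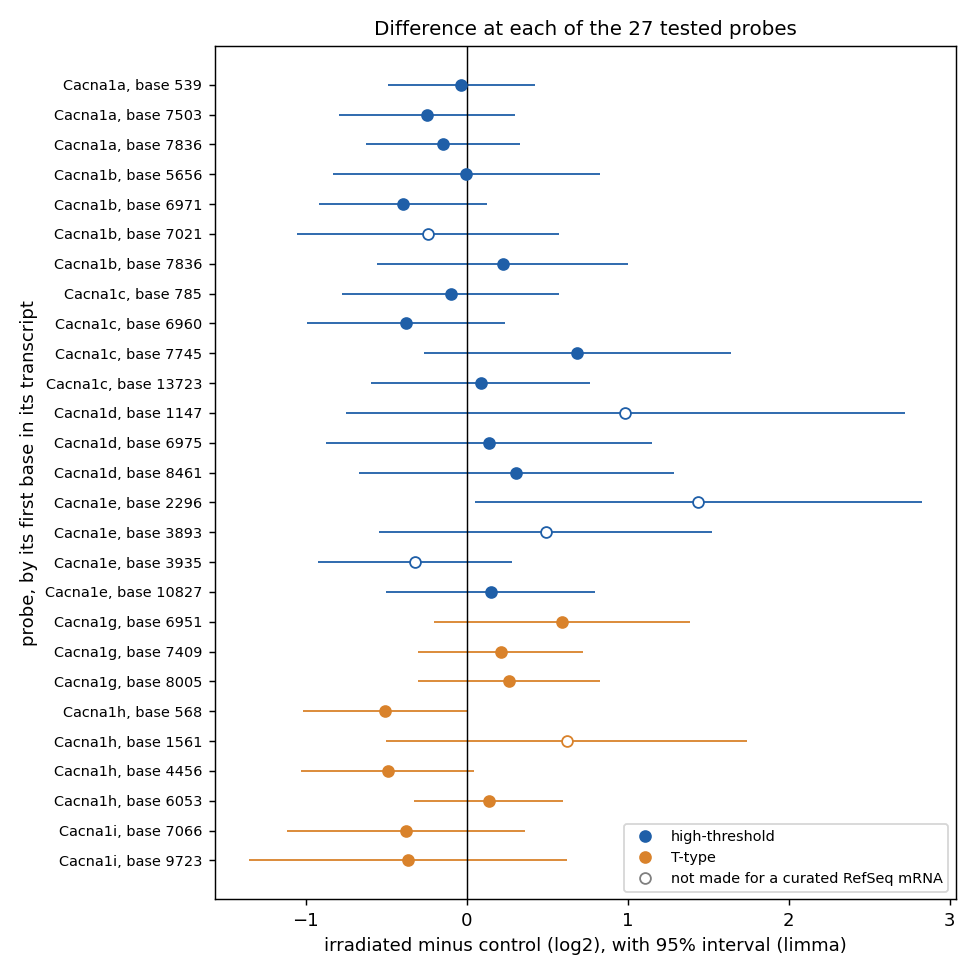
Irradiated minus control (log2) with the 95% interval from limma at each of the 27 tested probes, named by gene and by the first base in the transcript; open symbols mark probes not made for a curated RefSeq mRNA. Only the interval at Cacna1e base 2296 excludes 0, from 0.05 to 2.83.

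Among the high-threshold subunits, Cacna1a of the P/Q-type channel differed little between arrays. Its brightest probe (mm9 chr8:87164056-87164115, plus strand) measured 3.44, 3.43 and 3.52 on controls 1 to 3 and 3.18, 3.22 and 3.55 on irradiated 1 to 3. Irradiated cultures 1 and 2 were the lowest and irradiated 3 the highest, so the groups overlapped. The difference was -0.15, with a 95% interval from -0.62 to 0.33 and an adjusted p of 0.812, and it was 0.02 with quantile normalisation. It was -0.27 without irradiated 3 and -0.079 without irradiated 1. The other probes of Cacna1a differed by -0.25 at base 7503 and -0.03 at base 539. The latter spans 45606 bases of the genome with its 60 bases and therefore lies across an intron.

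Cacna1b, the N-type pore, had 4 tested probes that did not move together. At its brightest probe (chr2:24461283-24461342, minus strand) controls 1 to 3 measured 1.21, 2.00 and 2.14, and irradiated 1 to 3 measured 1.53, 2.18 and 2.31. Both cultures numbered 1 were lower than the 4 others, and within each number the irradiated culture was higher, by 0.32, 0.18 and 0.16. The difference of 0.22 had an interval from -0.55 to 1.0 (adjusted p 0.828), and without control 1 it was -0.07. At base 6971 (chr2:24462149-24462207) controls measured -1.54, -1.74 and -1.88 and irradiated cultures -2.40, -1.999 and -1.94. All 3 irradiated values lay below the controls there, and the difference was -0.40 (interval -0.92 to 0.13, adjusted p 0.537). That probe holds 55% G and C, and the median difference of all probes of like composition was -0.29. With each array centred within bins of GC content the difference at base 6971 was -0.10. The remaining tested probes, at bases 7021 and 5656, differed by -0.24 and -0.003.

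The L-type gene Cacna1c showed the same split by culture number. Its brightest probe (chr6:118537316-118537375, minus strand) measured 2.74, 3.34 and 3.53 on controls and 2.91, 3.42 and 3.54 on irradiated cultures. Each irradiated culture stood within 0.18 of the control with its number, while the cultures numbered 1 lay 0.63 below the mean of the others. The difference between groups was 0.09 (interval -0.59 to 0.77, adjusted p 0.939), and -0.15 without control 1. At base 7745 the values were -2.95, -1.91 and -1.44 on controls and -1.56, -1.0 and -1.68 on irradiated cultures, a difference of 0.69 (interval -0.27 to 1.64). The groups overlapped there, control 1 was the lowest array, and the difference was 0.26 without it and 0.26 with normexp background correction. The probe at base 6960 differed by -0.38 and that at base 785, which spans 6907 bases of the genome, by -0.10.

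For Cacna1d, the other L-type gene, the 3 probes all differed by more than 0, with overlapping groups and wide intervals. The brightest probe, made for a cDNA clone (chr14:31163417-31163476, minus strand), measured -3.05, 0.09 and -1.15 on controls and -1.08, -0.14 and 0.06 on irradiated cultures. Controls thus spanned the whole range of the irradiated values, and the difference of 0.98 had an interval from -0.75 to 2.72 (adjusted p 0.625). Without control 1 it was 0.14, and without control 2 it was 1.71. The curated mRNA was read 309644 bases downstream at base 8461 (chr14:30853773-30853832), with -2.41, -1.26 and -1.42 on controls and -2.12, -0.97 and -1.07 on irradiated cultures. Here too the cultures numbered 1 were lowest, and the irradiated culture exceeded the control of the same number by 0.29, 0.29 and 0.35. The difference was 0.31 (interval -0.67 to 1.29, adjusted p 0.806), -0.05 without control 1 and 0.11 with normexp background correction. The remaining probe, at base 6975 of the curated mRNA, differed by 0.14.

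Cacna1e, the R-type pore, held the largest difference of the 27 probes, at a probe not made for the curated mRNA. The probe at base 2296 of an Ensembl transcript (chr1:156546219-156546278, minus strand) measured -2.97, -0.40 and -1.16 on controls and -0.07, -0.23 and 0.09 on irradiated cultures. All 3 irradiated values lay above the controls, by a mean of 1.44 or 2.71-fold (interval 0.05 to 2.83), with an unadjusted p of 0.044 and an adjusted p of 0.52. The irradiated cultures were close together (SD 0.16) and the controls were not (SD 1.32). Without control 1 the difference was 0.71. At base 10827 of the curated mRNA, 304760 bases downstream (chr1:156241459-156241518), controls measured -2.42, -2.24 and -1.55 and irradiated cultures -1.97, -1.74 and -2.07. The groups overlapped and differed by 0.15 (interval -0.50 to 0.80). The 2 other probes of Cacna1e, made for further Ensembl transcripts, differed by 0.49 at base 3893, which was well above background on 3 of the 6 arrays, and by -0.32 at base 3935.

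**Figure D2:**
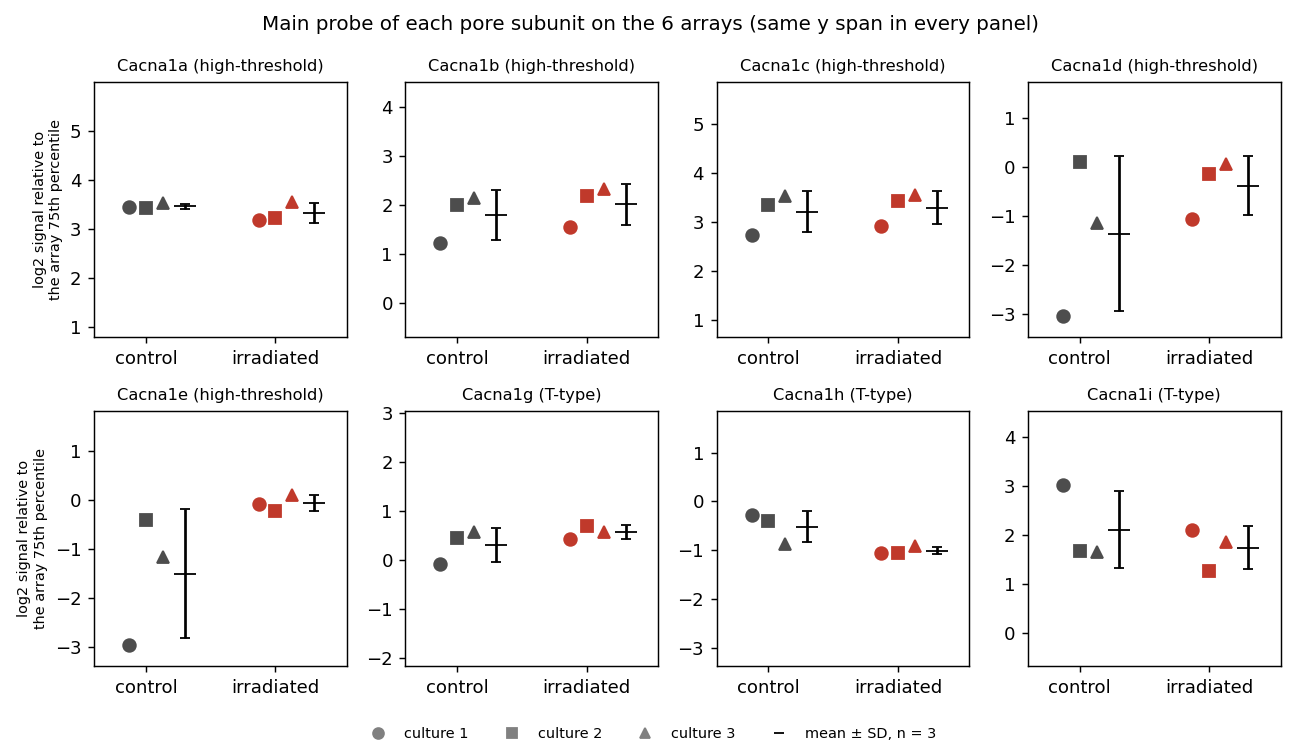
Log2 processed signal minus the 75th percentile of its array, at the brightest probe of each gene, with 1 symbol for each culture by its number and the mean ± SD (n = 3) beside it; all panels span the same number of log2 units. Control 1 lies at -3.05 for Cacna1d and -2.97 for Cacna1e, below every other culture, and at 3.01 for Cacna1i, above every other culture.

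The T-type genes did not share a direction. Cacna1g was the only one of the 3 whose tested probes were all above 0. At its brightest probe (chr11:94269863-94269922, minus strand) controls measured -0.08, 0.45 and 0.57 and irradiated cultures 0.43, 0.71 and 0.59. Each irradiated culture was above the control with its number, by 0.51, 0.26 and 0.02, yet the groups overlapped and the difference was 0.26 (interval -0.30 to 0.83, adjusted p 0.691). The probe at base 7409 gave -0.21, 0.07 and 0.14 on controls and -0.04, 0.35 and 0.32 on irradiated cultures, a difference of 0.21. At base 6951 the values were -3.70, -2.89 and -2.76 on controls and -2.70, -2.03 and -2.85 on irradiated cultures, a difference of 0.59 (interval -0.20 to 1.38, adjusted p 0.54), which was 0.0883 with normexp background correction. Control 1 was the lowest array at all 3 probes. Without control 1 the differences were 0.07, 0.11 and 0.30.

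Cacna1h differed by less than 0 at 2 of its 4 probes and by more than 0 at the other 2. At base 4456 (chr17:25521284-25521343, minus strand) controls measured -0.27, -0.40 and -0.87 and irradiated cultures -1.05, -1.04 and -0.92. All 3 irradiated values lay below the controls, the nearest being irradiated 3 and control 3, and the difference was -0.49 (interval -1.03 to 0.05, adjusted p 0.52). Base 568 (chr17:25569818-25569877) gave -3.34, -3.71 and -3.81 on controls and -4.25, -3.98 and -4.13 on irradiated cultures, again without overlap, a difference of -0.51 (interval -1.02 to 0.01, adjusted p 0.52). These probes hold 60% and 63.3% G and C, as the capitals in their sequences show, and the median difference of all probes with 60% to under 65% was -0.39. With each array centred within bins of GC content, the differences were -0.09 at base 4456 and -0.10 at base 568. The probe at base 1561, with 28.3% G and C, was not well above background on control 1 and measured -6.04, -4.37 and -4.26 on controls and -4.62, -4.13 and -4.06 on irradiated cultures. Its difference was 0.62 (interval -0.50 to 1.74), 0.05 without control 1 and -0.36 with normexp background correction. The probe at base 6053, also with 60% G and C and not well above background on control 1, differed by 0.14.

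Cacna1i was the one T-type gene with every probe below 0. At its brightest probe (chr15:80228652-80228711, plus strand) controls measured 3.01, 1.66 and 1.64 and irradiated cultures 2.11, 1.26 and 1.85. The cultures numbered 1 were the 2 highest, and the difference of -0.37 had an interval from -1.35 to 0.62 (adjusted p 0.762). It was 0.09 without control 1. At base 7066, a probe with 73.3% G and C, controls measured -1.37, -1.82 and -2.54 and irradiated cultures -2.38, -2.38 and -2.11, a difference of -0.38 (interval -1.12 to 0.36). That value was -0.11 without control 1, -0.69 without control 3, and 0.12 with each array centred within GC bins.

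Set side by side at 1 brightest probe per gene, the 5 high-threshold genes had a median difference of 0.22, with 4 above 0 and 1 below. The 3 T-type genes had a median of -0.37, with 1 above 0 and 2 below, while the median of all genes was -0.13 and 65.8% of them were below 0. The order turned without control 1, where the medians were -0.07 for the high-threshold and 0.07 for the T-type genes. Over all tested probes the classes lay close together, with medians of 0.04 for 18 high-threshold probes and 0.14 for 9 T-type probes. At probes of curated mRNAs the medians were -0.003 (n = 13) and -0.11 (n = 8). These medians are descriptions of the classes and were not tested. The high-threshold probes as a whole deviated from their own means by -0.56 on control 1, -0.19 on irradiated 1 and between 0.16 and 0.24 on the 4 other arrays. For the T-type probes the mean deviations lay between -0.09 and 0.06. Control 1 was nevertheless the lowest array at 5 of these 9 probes and the highest at 4, so deviations of opposite sign entered its mean.

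**Figure D3:**
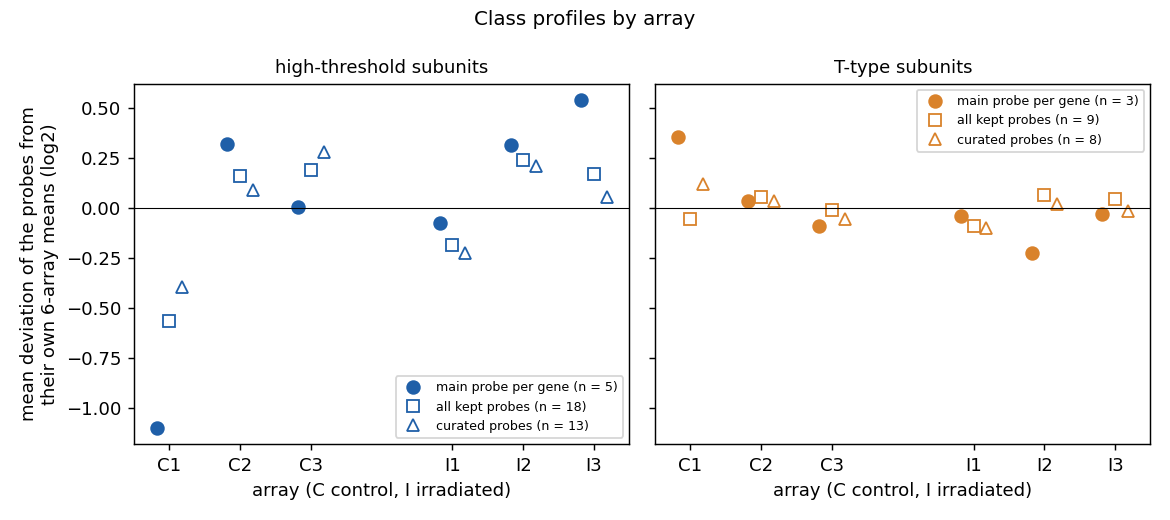
Mean deviation (log2) of the probes of each class from their own means over the 6 arrays, for controls C1 to C3 and irradiated cultures I1 to I3, with 1 brightest probe per gene, all tested probes or only probes of curated mRNAs. The high-threshold class lies lowest on control 1, at -1.10, -0.56 and -0.40 in the 3 sets of probes; the brightest T-type probes lie at 0.35 on control 1 and -0.23 on irradiated 2.

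Several members differed more by culture number than by exposure. Same-numbered cultures deviated together from their group means over all genes (correlation 0.53, 0.42 and 0.22 for the numbers 1, 2 and 3 over 26157 genes, described without a test). Control 3 correlated more with irradiated 2 (0.33) than with irradiated 3. The arrays numbered 1 were the 2 lowest of 6 at 6 of 18 high-threshold probes and 3 of 9 T-type probes, against 16.5% of all probes. These probes belonged to Cacna1b, Cacna1c, Cacna1d, Cacna1g and Cacna1h. They were the 2 highest at 1 member probe, the brightest of Cacna1i, against 12.5% of all probes. Some marker lists also followed the number and others did not. The 8 microglial markers deviated by 1.19 on control 1 and 1.64 on irradiated 1, and by -1.07 to -0.39 elsewhere, and the 6 oligodendrocyte markers by 1.84 and 1.57, against -1.47 to -0.21 elsewhere. The 7 astrocyte markers stood at 0.82 and 0.57 on those arrays, and the 6 markers of excitatory neurons at -0.24 and -0.23. Other lists had opposite signs on control 1 and irradiated 1: neurons 0.11 and -0.48, inhibitory neurons 0.32 and -0.15, fibroblasts 0.27 and -0.37. Oligodendrocyte precursors stood at -0.05 and -0.27. All 8 microglial and all 7 astrocyte markers were well above background on all arrays, and 5 of the 6 oligodendrocyte markers were. The summed microglial level was 3.29 to 4.29 in controls and 3.57 to 4.69 in irradiated cultures, the astrocyte level 7.32 to 8.82 and 7.29 to 8.30, the oligodendrocyte level 4.58 to 7.01 and 4.89 to 6.86. The part of these cells in the channel values was not tested.

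Differences moved with the base composition of the probe, in all probes and in those of the channels. Over all tested probes the median difference was 0.12 for probes with under 30% G and C and fell by bins to -0.51 for probes with 70% or more. The arrays took unequal parts in this. In the lowest bin the median deviation of a probe from its own mean was -0.55 on control 1, against 0.07 to 0.19 on the other 5 arrays. In the highest bin it was 0.57 on control 1, 0.29 on control 2 and between -0.33 and -0.09 on the others. Of the member probes, the 7 with under 40% G and C had a median difference of 0.49, against 0.05 over all probes of that composition. That median is the value of Cacna1e at base 3893, a probe well above background on only 1 control and 2 irradiated arrays. On control 1 it read -7.24, the same value as the untested Cacna1b probe at base 264. Of these 7, 6 were above 0, against 7886 of 13725 such probes. The 8 with 55% or more had a median of -0.38, against -0.31 over all such probes. Of these 8, 6 were below 0, against 76.9% of all such probes. All 3 member probes at which irradiated cultures lay below the controls without overlap were among these 8. Of all probes with 55% or more, 748 of 4317 lay below in that way. Centring within GC bins left Cacna1e at 1.36 and Cacna1d at 0.90 at their brightest probes, and moved Cacna1g at base 6951, with 55% G and C, from 0.59 to 0.89.

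**Figure D4:**
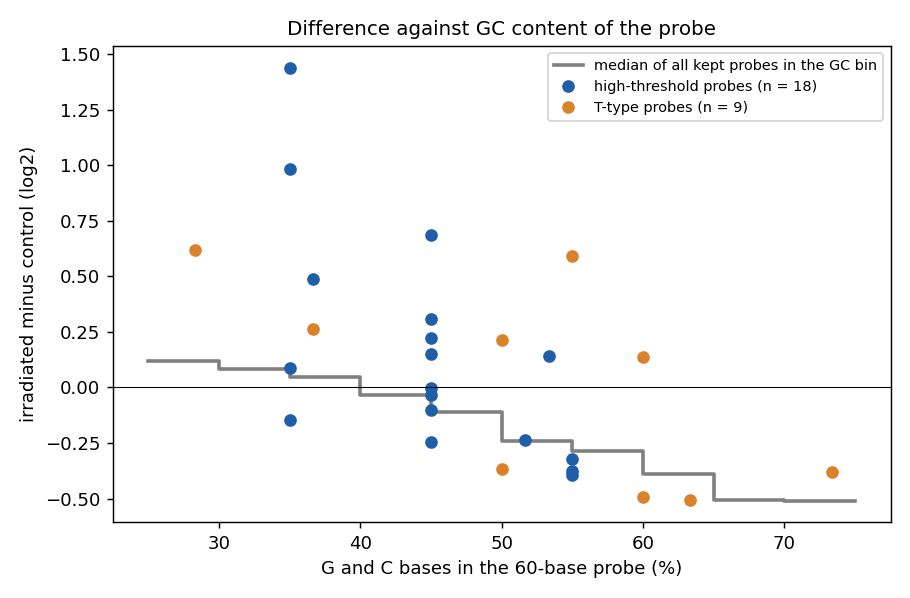
Irradiated minus control (log2) against the percentage of G and C in the probe, for 18 high-threshold and 9 T-type probes; the grey steps give the median of all tested probes in bins of 5 percentage points. The steps fall from 0.12 to -0.51, and of the 3 Cacna1h probes between 60% and 65% those at bases 4456 and 568 lie at -0.49 and -0.51, below the step at -0.39, while that at base 6053 lies above it at 0.14.

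The genes named as auxiliary subunits gave no call either. Of 16 such genes 15 were measured, Cacng1 of skeletal muscle being too dim, and 0 passed the test in either direction. Differences above 0 were seen in 8 and below 0 in 7, against 34.2% and 65.8% of all genes. Their median was 0.002, against -0.13 over all genes. Cacng7, a protein that binds AMPA receptors, had the smallest unadjusted p below 0. It measured 4.99, 4.40 and 4.27 on controls and 4.05, 3.74 and 3.99 on irradiated cultures, with no overlap, a difference of -0.63 (interval -1.21 to -0.04, adjusted p 0.505). The second tested probe of Cacng7 differed by -0.35. Above 0 the smallest p belonged to Cacng8, a related AMPA receptor protein, at 0.31 with overlapping groups. The beta and alpha2delta subunits pair with the high-threshold pores and set their surface density and gating. All 8 of these genes had overlapping groups, and of all genes only 15.9% had groups that did not overlap. Cacnb1 to Cacnb4 differed by 0.002, 0.21, -0.01 and 0.05, and Cacna2d1 to Cacna2d4 by -0.17, -0.64, 0.07 and 0.04. Cacna2d2 thus had the lowest value of all auxiliary genes, with an adjusted p of 0.527.

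Pore genes known from other tissues served as a comparison. Cacna1f, the retinal L-type pore, was well above background on 3 of the 6 arrays and differed by 0.66 (interval -0.36 to 1.68, adjusted p 0.577). Cacna1s, the L-type pore of skeletal muscle, was well above background on all 6 arrays and differed by -0.47 (interval -1.10 to 0.15, adjusted p 0.528). Both sets of values overlapped between groups, and neither gene passed the test.

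Genes whose profile over the 6 arrays was most like that of each class were found among 14797 named genes well above background on all arrays. For the high-threshold profile, lowest on control 1 at -1.10, they were Cmah, Gpc6 and Zkscan2, with Pearson's r of 0.996, 0.995 and 0.992 over 6 arrays. For the T-type profile they were Hist1h2ag, Baiap2l2 and Nfatc4, each at 0.998. With 6 arrays of which 1 stands apart, and so many genes searched, correlations of this size are a description of rank among genes.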

How the data were processed

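The authors deposited scanner files of spot intensity, made with Agilent Feature Extraction 10.7.1.1 (named in the submitters' processing notes). The processed signal, per the file headers, is background-subtracted, detrended within the array and not normalised between arrays. The authors also deposited a log2 table, quantile normalised by its values (each column's median 5.90), with no tool named in the sources used here; it served as an alternative. Here spots marked as outliers were left out, the processed signal was taken to log2, and the 75th percentile of the 56605 non-control probes was subtracted. After 10 probes lacking an unmarked spot on 1 array or more were dropped, 40552 were kept, being well above background on at least 3 of 6 arrays. Gene names are those of the files, and the kept probe with the highest mean stood for a gene. Positions are on build mm9, per the file headers; exon annotation of that build was not used here. Slide and scan were the same for all arrays.

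The 2 groups entered limma 3.58.1 (R 4.3.3) without covariates, adjusting over all probes or genes by Benjamini-Hochberg at 0.05; the fit was tested on simulated data. The same replicate numbers occur in both groups, and same-numbered arrays deviated together (correlations above). The labels do not say that the numbers pair the samples. The reported intervals and p-values therefore ignore the numbers, and a block on the number was tried only as an alternative. The text names every member, and from each list of channel partners the gene with the smallest unadjusted p in each direction, plus the beta and alpha2delta subunits, chosen after their values were seen. Members and lists were chosen with earlier results of these data known, and the probes named individually after their values were seen. Other settings tried were the background correction, scaling, filter, probe choice, replicate block and leaving out arrays.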

Additional observations from a re-analysis of the deposited data

How the results depend on the processing

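Called probes numbered 0 and called genes 0 as reported and in the other settings, except 4 probes and 2 genes with quantile normalisation and 4 and 2 with the deposited log2 table, none of them a member. Unadjusted p under 0.05 was met by 3657 probes and 2389 genes as reported, by 6870 and 4576 with normexp background correction, by 5701 and 3786 with no filter, and with 1 array left out by 1238 (without irradiated 1) to 6367 probes (without control 3) and 736 (without irradiated 2) to 4530 genes (without control 3). With the replicate number as a block, which leaves the differences as they are by construction, 0 genes were called and the adjusted p of Cacna1e (difference 1.44) was 0.465; the block changed no call of a member. The median of the T-type genes was -0.0595 with the mean of each gene's probes, -0.0953 without both arrays numbered 1 and -0.0886 with GC centring, and from -0.60 (without control 3) to 0.0678 (without control 1) with 1 array left out, -0.13 without irradiated 2; the high-threshold median ran from -0.07 to 0.46. Signs turned for Cacna1a at 0.0158 with quantile normalisation and 0.0163 with the deposited table, for Cacna1b at -0.10 with the mean of its probes, for Cacna1e at base 10827 at -0.0512 with normexp background correction and -0.00524 without both arrays numbered 1, for Cacna1h at base 1561 at -0.36 with normexp, and for Cacna1i at base 7066 at 0.12 with GC centring. With 1 array left out, Cacna1a ranged from -0.27 to -0.079, Cacna1b from -0.065 to 0.46, Cacna1c from -0.15 to 0.28 (-0.04 without irradiated 3), Cacna1i from -0.60 to 0.0878, Cacna1d at base 8461 from -0.0462 to 0.67 and Cacna1e at base 10827 from -0.0274 to 0.41. With curated mRNA probes only, Cacna1e was 0.15 and Cacna1d 0.31. Where values moved, the cause was not tested. GC centring, the curated probes and leaving out both arrays numbered 1 were chosen after seeing the data. With 3 cultures a group the intervals were wide. The narrowest of a member, Cacna1a at base 539, ran from -0.49 to 0.42. The intervals are not adjusted for the number of probes, so they do not give the size of difference that the test could call. Normexp correction moved the median difference of all probes from -0.05 to -0.20.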

Other observations

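Genes that act around and after the channels were measured in 3 further lists. Of 17 modulators of the pores, such as calmodulins and calcium sensors, 16 were measured and 0 passed the test; 5 differences were above 0 and 11 below, with a median of -0.16, against 34.2% above 0 over all genes. Stac3, an adaptor of the muscle L-type channel, measured -3.05, -2.09 and -2.66 on controls and -1.64, -2.09 and -1.86 on irradiated cultures, above every control though irradiated 2 and control 2 are equal to 2 decimals, a difference of 0.73 (adjusted p 0.505). Ncs1, a neuronal calcium sensor, differed by -0.49 (adjusted p 0.505), and its second probe by -0.02. None of the 13 presynaptic genes that couple P/Q-type and N-type channels to release passed, with 3 above 0 and 10 below and a median of -0.11. Among them Stx1a, a SNARE protein, differed by 0.24 and Bsn, an active zone scaffold, by -0.41, both with overlapping groups. The second tested probe of Bsn differed by 0.002. Of 19 calcium-dependent effectors 0 passed, with 5 above 0 and 14 below and a median of -0.17. Over all genes the median was -0.13 and 65.8% were below 0. Camk2a, a calcium-calmodulin kinase, differed by -0.46 at its brightest probe, and its 3 probes ranged from -0.46 to 0.65. Creb1, a transcription factor that calcium entry activates, differed by 0.07, and its 6 probes ranged from -0.01 to 1.32.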
